A study of Drosophila melanogaster with 6 samples.

Results

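The genes described here belong to the Hippo and Fat growth control pathways of Drosophila melanogaster, and they were followed in whole wing imaginal discs with reduced lid. They were taken as the probe sets that carry 1 gene symbol in the array's annotation and whose symbol is yki, hpo, wts, ft, ds, fj, ex, Mer or kibra. Of these 9 genes 8 were found, on 9 of the 18769 probe sets tested, with kibra on 2 of them. No probe set was paired with ft alone, and ft is not analysed here. RNA came from dissected discs of wandering larvae in the third instar kept at 25 °C, with 30 discs per sample and 25 ng of total RNA amplified for each of 6 arrays. The LID RNAi group (2 arrays) carried the lidk06801 allele and a hairpin against lid under act5Cgal4, a driver active in nearly all cells. The GFP RNAi group (2 arrays) carried a hairpin against GFP under the same driver in a w1118 background. The wild type group (2 arrays) has no RNAi according to its labels, although its background field names w1118 with act5Cgal4 as well. Allele and knockdown occur together in the LID RNAi group, so that their parts cannot be told apart, and the strains differ in background too. All groups share the stage, the tissue and the amplification.

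The Hippo pathway limits organ size. Its kinase cascade, in which Hippo activates Warts, phosphorylates the coactivator Yorkie and keeps it out of the nucleus, where it would otherwise drive growth and survival genes together with the DNA-binding protein Scalloped. Expanded, Merlin and Kibra assemble at the apical cell cortex and turn the cascade on, and the atypical cadherins Fat and Dachsous form a further input whose binding is tuned by the kinase Four-jointed. In the wing disc several of these genes, among them ex, kibra and fj, are known as transcriptional targets of Yorkie, so that their mRNA is often read as a measure of its activity.

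Values are log2 expression values made with RMA, a procedure that corrects background, equalises the arrays and sums up the probes of a set. The targeted gene lid, listed as Kdm5, read 8.36 and 8.04 with LID RNAi, 10.32 and 10.45 with GFP RNAi and 10.42 and 10.33 in wild type, so its transcript was lowered on both arrays with the hairpin against it. The difference for Kdm5 was -2.19 from GFP RNAi and -2.17 from wild type (limma adjusted p = 0.0309 and 0.00877). Across alternatives its adjusted p ran from 0.00709 to 0.220 and from 0.00173 to 0.0929, and the call against GFP RNAi was lost with a block for replicate number (adjusted p = 0.0820) and whenever 1 of the 6 arrays was left out. With 1 array left out, the difference from GFP RNAi still lay between -2.35 and -2.02. The call against GFP RNAi was also lost when only these 2 groups were fitted. Without variance moderation in limma the calls against GFP RNAi and wild type were both lost. Array medians lay between 6.31 and 6.43. LID RNAi replicate 2 had the widest gap between the 3′ and 5′ ends of the GAPDH transcript, at 3.54 on the log2 scale against 2.67 to 3.17 on the other 5 arrays. LID RNAi replicate 1 correlated best with GFP RNAi replicate 1 and not with its own replicate. Background was set at 4.82, the 95% point of 27 probe sets for transcripts of Bacillus subtilis. All 9 pathway probe sets stood above it on each of the 6 arrays, the closest by 3.86 log2 units.

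No pathway gene passed the test in any comparison. In LID RNAi against GFP RNAi 0 of the 9 probe sets had an adjusted p under 0.05 (limma, Benjamini-Hochberg over all 18769 probe sets), where 0.469% of all probe sets did. In LID RNAi against wild type 0 of 9 passed, against 2.34% of all probe sets, and in GFP RNAi against wild type 0 of 9, against 0.863%. At an unadjusted p under 0.05 the number was 0 of 9 in each comparison as well, where 12.4%, 16.9% and 11.4% of all probe sets reached it. Against these shares a count of 0 of 9 is near the background. Differences of the 9 probe sets ran from -0.10 to 0.097 for LID RNAi against GFP RNAi, from -0.21 to 0.22 against wild type and from -0.14 to 0.20 in GFP RNAi against wild type. The 95% intervals of single probe sets, not corrected for the number of genes, reached at most a 1.32-fold difference in the first comparison, 1.44-fold in the second and 1.38-fold in the third. A doubling or halving of any of these 8 transcripts therefore lies outside its interval, while smaller differences within these bounds could not be resolved with 2 arrays per group. RMA values tend to understate fold changes, so the bounds apply to this scale.

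**Figure D1:**
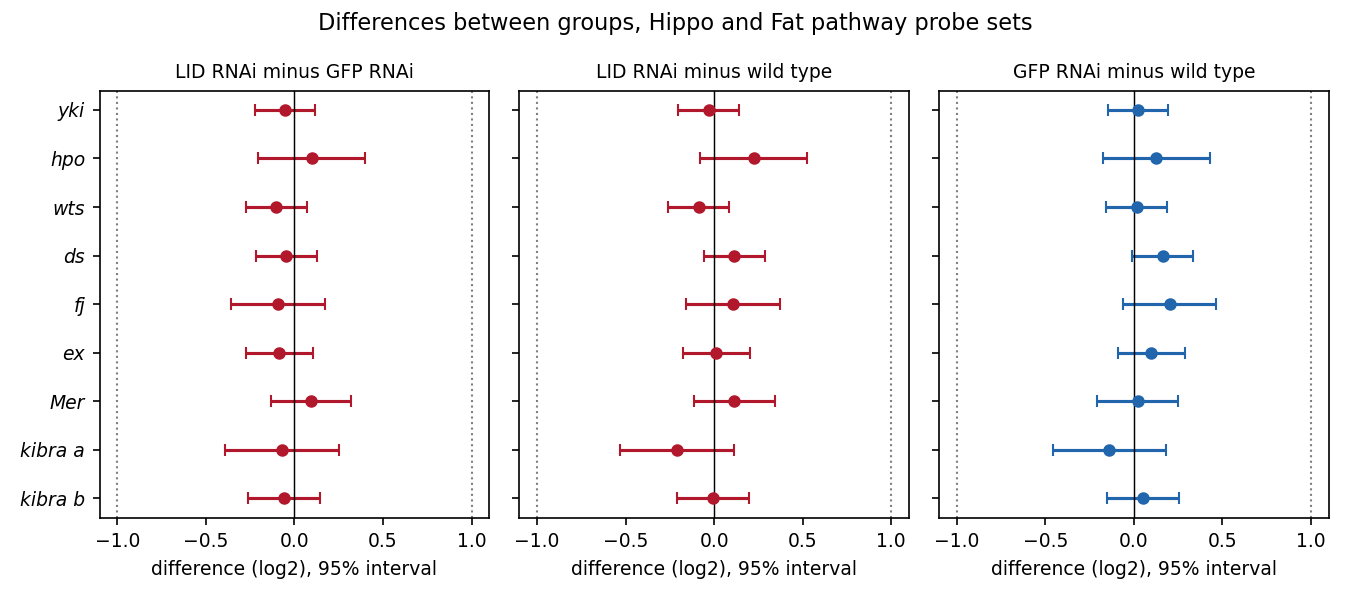
Differences between groups in log2 (points) with 95% intervals from limma (bars) for the 9 pathway probe sets, in LID RNAi minus GFP RNAi, LID RNAi minus wild type and GFP RNAi minus wild type. kibra a is probe set 1624053_at and kibra b is 1632884_at; dotted lines at -1 and 1 mark a halving and a doubling, and every interval includes 0 and stays inside them.

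At the membrane, ds encodes the cadherin Dachsous, the ligand of Fat. It read 12.42 and 12.44 on the LID RNAi arrays, 12.46 and 12.50 on the GFP RNAi arrays and 12.32 and 12.32 on the wild type arrays. The 4 RNAi arrays lay above both wild type arrays, with GFP RNAi highest. The difference was 0.16 ± 0.07 (SE) in GFP RNAi against wild type (limma adjusted p = 0.470, unadjusted p = 0.0614, the lowest among the 9), 0.11 ± 0.07 in LID RNAi against wild type (adjusted p = 0.477) and -0.047 ± 0.066 in LID RNAi against GFP RNAi (adjusted p = 0.830).

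The gene fj encodes Four-jointed, a Golgi kinase that phosphorylates the cadherin domains of Fat and Dachsous. Its values were 11.81 and 11.94 with LID RNAi, 11.86 and 12.07 with GFP RNAi and 11.77 and 11.76 in wild type. As for ds, all 4 RNAi arrays exceeded both wild type arrays, but the replicates of each RNAi group stood further apart than those of wild type. Differences were 0.20 ± 0.10 (SE) in GFP RNAi against wild type, 0.11 ± 0.10 in LID RNAi against wild type and -0.094 ± 0.101 in LID RNAi against GFP RNAi, with limma adjusted p of 0.563, 0.667 and 0.772. Single arrays moved each of these values. Without GFP RNAi replicate 2 the difference was 0.099 in GFP RNAi against wild type and 0.0084 in LID RNAi against GFP RNAi, and without GFP RNAi replicate 1 it was 0.30 and -0.20. The difference of LID RNAi from wild type was 0.043 without LID RNAi replicate 2 and 0.17 without its replicate 1.

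Among the upstream activators, ex encodes Expanded, a protein with a FERM domain that binds Yorkie and brings the kinases to the apical cortex. It read 12.32 and 12.36 on the LID RNAi arrays, 12.40 and 12.45 on the GFP RNAi arrays and 12.29 and 12.37 on the wild type arrays. The LID RNAi arrays lay below both GFP RNAi arrays and overlapped with wild type. The difference from GFP RNAi was -0.086 ± 0.073 (SE, limma adjusted p = 0.710) and that from wild type 0.013 ± 0.073 (adjusted p = 0.954).

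Mer encodes Merlin, the fly counterpart of the human tumour suppressor NF2 and a partner of Expanded. Its values were 10.16 and 10.33 with LID RNAi, 10.18 and 10.12 with GFP RNAi and 10.13 and 10.13 in wild type. LID RNAi replicate 2, the array with the wide gap between transcript ends, was the high one, and the other 5 arrays spanned 10.12 to 10.18. The difference was 0.093 ± 0.088 (SE) from GFP RNAi and 0.11 ± 0.09 from wild type (limma adjusted p = 0.739 and 0.592). Without LID RNAi replicate 2 these differences were 0.0075 and 0.028.

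For kibra, which encodes a WW domain scaffold that acts with Merlin and Expanded, the array holds a pair of probe sets. Probe set 1624053_at read 9.88 and 9.82 on the LID RNAi arrays, 9.78 and 10.06 on the GFP RNAi arrays and 9.98 and 10.14 on the wild type arrays. Both LID RNAi arrays lay within the spread of the GFP RNAi arrays and below both wild type arrays. Probe set 1632884_at read 8.70 and 8.74 with LID RNAi, 8.73 and 8.83 with GFP RNAi and 8.78 and 8.68 in wild type, with all groups overlapping. In LID RNAi against wild type the 2 probe sets stood at -0.21 ± 0.12 and -0.0073 ± 0.0786 (SE, limma adjusted p = 0.483 and 0.977), and whether they differ from each other was not tested. Without wild type replicate 2 the first was -0.13. In LID RNAi against GFP RNAi they stood at -0.071 ± 0.123 and -0.058 ± 0.079 (adjusted p = 0.867 and 0.820).

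In the kinase core, hpo encodes the Ste20-like kinase Hippo. It read 10.87 and 11.06 on the LID RNAi arrays, 10.87 and 10.87 on the GFP RNAi arrays and 10.63 and 10.86 on the wild type arrays. LID RNAi replicate 2 was the highest array and wild type replicate 1 the lowest, and the remaining 4 arrays lay between 10.86 and 10.87. With a range of 0.22 between its group means hpo had the widest spread of the 9 probe sets. The difference was 0.22 ± 0.12 (SE) from wild type and 0.097 ± 0.116 from GFP RNAi (limma adjusted p = 0.431 and 0.797). Without LID RNAi replicate 2 it was 0.13 and 0.0033, and without wild type replicate 1 the difference from wild type was 0.11.

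The gene wts encodes Warts, the kinase that phosphorylates Yorkie. It read 11.31 and 11.33 with LID RNAi, 11.42 and 11.42 with GFP RNAi and 11.39 and 11.42 in wild type. Both LID RNAi arrays lay below all 4 control arrays, and the replicates of each group were close together. The difference was -0.10 ± 0.07 (SE) from GFP RNAi and -0.087 ± 0.066 from wild type (limma adjusted p = 0.618 and 0.584), which places LID RNAi at 93.1% and 94.1% of these groups. Without LID RNAi replicate 2 the differences were -0.11 and -0.094.

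The effector gene yki had the narrowest spread. It read 10.98 and 10.96 on the LID RNAi arrays, 11.03 and 11.02 on the GFP RNAi arrays and 11.00 and 11.00 on the wild type arrays, a range of 1.05-fold over the 6 arrays. Both LID RNAi arrays were below the 4 control arrays by a small margin. The difference was -0.053 ± 0.065 (SE) from GFP RNAi and -0.032 ± 0.065 from wild type (limma adjusted p = 0.801 and 0.859). The 95% interval of the first ran from 0.856-fold to 1.08-fold.

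**Figure D2:**
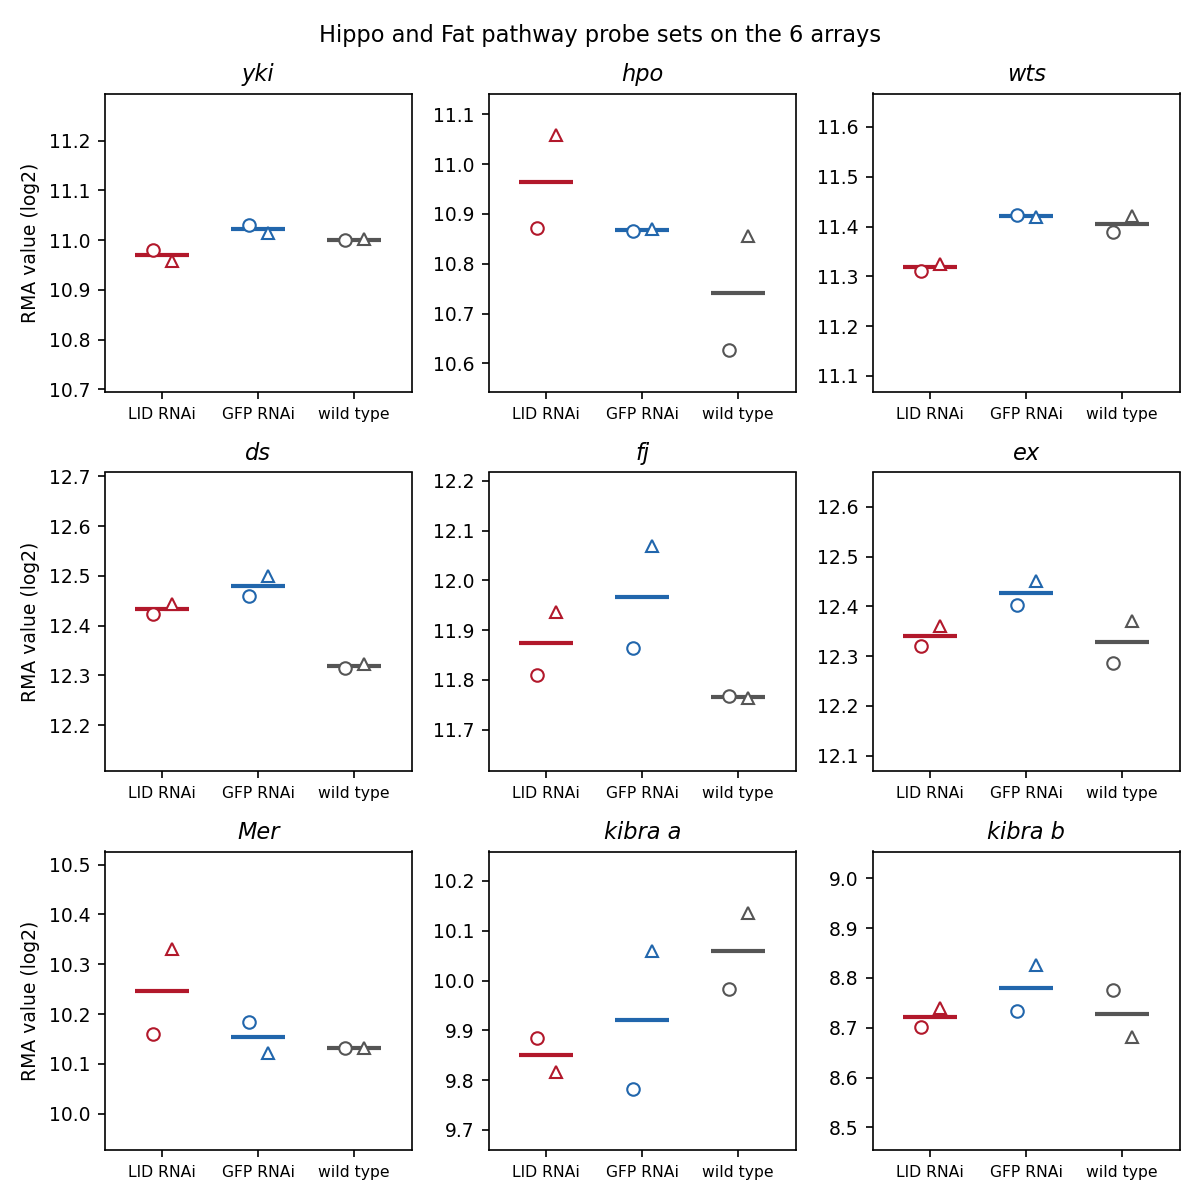
RMA values in log2 for each of the 9 pathway probe sets on the 6 arrays, with LID RNAi, GFP RNAi and wild type from left to right; circles are replicate 1, triangles replicate 2 and bars the mean of 2 arrays. Every panel spans 0.6 log2 units, kibra a is probe set 1624053_at and kibra b is 1632884_at, and the wts and yki values of LID RNAi sit below all control arrays while ds and fj are lowest in wild type.

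Groups whose arrays do not overlap were common over all probe sets, as is frequent with 2 arrays per group, and the pathway probe sets are given beside those shares without a test. In LID RNAi against GFP RNAi the arrays were all lower for 4 of 9 probe sets (yki, wts, ds and ex), where 20.7% of all probe sets were, and all higher for hpo, where 21.2% were. In LID RNAi against wild type 4 were higher (hpo, ds, fj and Mer) against 20.7% of all probe sets, and 3 were lower (yki, wts and kibra on 1624053_at) against 26.4%. In GFP RNAi against wild type 5 were higher (yki, hpo, ds, fj and ex) against 19.0%, and 0 were lower against 26.7%. Below all 4 control arrays stood yki and wts in LID RNAi, where 12.8% of all probe sets did, and hpo stood above them, where 10.6% did. When each array was centred on its own median, 0 of the 9 probe sets lay below or above all 4 controls. Of all probe sets 8.72% lay below and 16.5% above them under this scaling. With quantile normalisation yki and wts remained below, where 12.4% of all probe sets did. The gene hpo then no longer lay above the controls, where 11.5% of all probe sets did. The 2 comparisons with wild type share its arrays, and those with GFP RNAi share theirs. The median difference of the 9 was -0.058 in LID RNAi against GFP RNAi, 0.013 against wild type and 0.051 in GFP RNAi against wild type, beside 0.0088, -0.0091 and -0.018 over all probe sets.

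Spread between groups was set beside that of other probe sets. The range of the 3 group means had a median of 0.11 over the 9 pathway probe sets and ran from 0.053 for yki to 0.22 for hpo. Over the 6183 probe sets whose mean level lay between those of the lowest and the highest pathway probe set (8.74 and 12.41) the median was 0.17, and 6 of the 9 lay below it. Of the 12912 probe sets above background, 92.3% had a wider range than yki and 48.7% a wider range than hpo. The standard deviation over the 6 arrays had a median of 0.076 against 0.11 between the same levels, again with 6 of the 9 below the latter. The lower end of these levels is set by kibra on 1632884_at alone, and the next lowest pathway probe set had a mean of 9.94. Whether the pathway probe sets differ from others in spread was not tested.

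**Figure D3:**
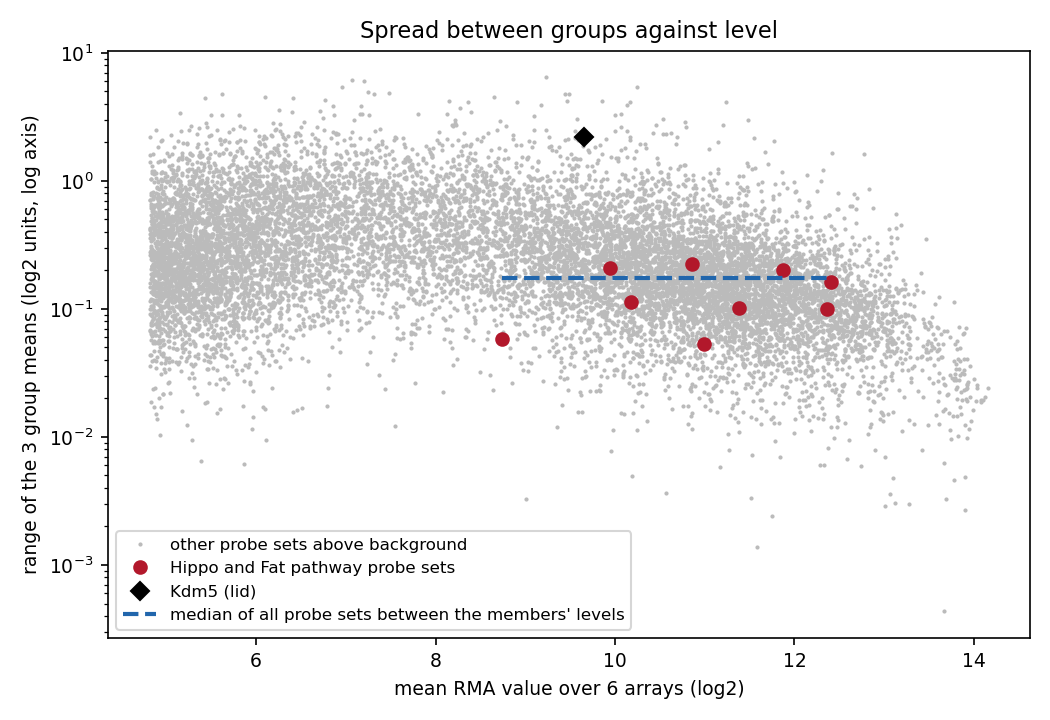
Range of the 3 group means in log2 units (vertical log axis) against the mean RMA value over 6 arrays (horizontal axis) for probe sets above background, with the 9 pathway probe sets as red circles and Kdm5 as a black diamond. The dashed line is the median of 0.17 over probe sets between the lowest and the highest pathway level; 6 pathway probe sets lie below it, 3 above, and Kdm5 lies far above.

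Since hpo had the widest range of group means, the genes with the most similar profile over the 6 arrays were sought for it. Over the 8337 probe sets eligible by level and spread the highest Pearson correlations were those of cos (0.990), CG8924 (0.986), Tcs4 (0.983), CLS (0.980) and chb (0.977). A correlation above 0.9 was found for 84 of them. These are descriptions over 6 arrays in 3 groups, and the likeness rests on the same high and low arrays. cos, for example, read 10.84 and 10.93 with LID RNAi, 10.85 and 10.86 with GFP RNAi and 10.71 and 10.84 in wild type, again with wild type replicate 1 lowest and LID RNAi replicate 2 highest.

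The wider neighbourhood of the pathway was read from 6 lists with 69 genes, of which 53 were measured and the other 16 are not analysed here. None of the 53 passed limma's adjusted threshold in any comparison, with 5, 6 and 3 at an unadjusted p under 0.05 in the comparisons of LID RNAi with GFP RNAi, of LID RNAi with wild type and of GFP RNAi with wild type. These are 9.43%, 11.3% and 5.66% of the 53, against the 12.4%, 16.9% and 11.4% of all probe sets given above, and the adjusted threshold was passed by 0.469%, 2.34% and 0.863% of all probe sets. The median difference was -0.048 in LID RNAi against GFP RNAi and -0.071 against wild type, with 38 of 53 below 0 in each, and -0.0084 in GFP RNAi against wild type. Over all probe sets these medians were 0.0088, -0.0091 and -0.018, while the share of all probe sets below 0 was not counted. With arrays centred on their medians, 33 and 26 of 53 were below 0 in the comparisons with LID RNAi, with medians of -0.012 and 0.0012. The medians over all probe sets rose under this scaling as well, to 0.044 and 0.064. With quantile normalisation 36 and 34 of 53 were below 0, with medians of -0.052 and -0.045. Over all probe sets both medians were then 0.0036. Whether the 53 genes differ from all probe sets was not tested.

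Of 13 kinase partners and upstream regulators, the largest difference from GFP RNAi was that of msn, which encodes the kinase Misshapen, able to phosphorylate Warts in parallel to Hippo. It read 11.81 and 11.60 on the LID RNAi arrays, 11.42 and 11.42 on the GFP RNAi arrays and 11.70 and 11.80 on the wild type arrays. The GFP RNAi arrays were the low ones, and the difference in LID RNAi was 0.28 ± 0.10 (SE, limma adjusted p = 0.366) from GFP RNAi and -0.051 ± 0.098 from wild type (adjusted p = 0.848). The median of this list was -0.025 and -0.082 in LID RNAi against GFP RNAi and wild type. Of 7 genes of the Fat and Dachsous branch the largest was mnb, a kinase gene, at -0.17 ± 0.10 (SE, adjusted p = 0.578), with list medians of -0.068 and -0.038.

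Among 8 partners of Yorkie, Tgi, which encodes a corepressor that competes with Yorkie for Scalloped, had the largest difference from GFP RNAi. It read 10.43 and 10.33 with LID RNAi, 10.58 and 10.65 with GFP RNAi and 10.56 and 10.58 in wild type. Both LID RNAi arrays lay below all controls, at -0.24 ± 0.08 (SE) from GFP RNAi and -0.19 ± 0.08 from wild type (limma adjusted p = 0.324 and 0.317). Of 6 measured targets of Yorkie, which include the cell cycle gene CycE and the glypican gene dlp, the largest difference from GFP RNAi was that of the wing selector gene vg, at -0.13 ± 0.08 (SE, adjusted p = 0.594). The medians over these targets were -0.077 and -0.031 in LID RNAi against GFP RNAi and wild type. Of the 6, upd2 was not above background on every array, and without it the medians were -0.045 and 0.020, so that the sign against wild type turned. Against wild type upd1, a gene for a JAK/STAT ligand named here after its value was seen, stood at 0.43 ± 0.11 in LID RNAi and 0.30 ± 0.11 in GFP RNAi (SE, adjusted p = 0.162 and 0.435).

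The polarity genes held the largest difference of the 53. l(2)gl encodes the basolateral protein Lethal giant larvae, whose loss lets Yorkie become active. It read 11.44 and 11.49 on the LID RNAi arrays, 10.78 and 11.01 on the GFP RNAi arrays and 11.34 and 11.36 on the wild type arrays. The GFP RNAi arrays stood apart below the other 4, so that the difference was 0.56 ± 0.10 (SE, limma adjusted p = 0.134) in LID RNAi against GFP RNAi, 0.11 ± 0.10 against wild type (adjusted p = 0.640) and -0.45 ± 0.10 in GFP RNAi against wild type (adjusted p = 0.193). Over the alternatives the adjusted p of the first ran from 0.0440, with an intensity trend in the variance prior, to 0.356. The remaining genes of this list lay within 0.22 of GFP RNAi, and the list medians were -0.065 and -0.056 in LID RNAi against GFP RNAi and wild type. Of 7 core planar polarity genes the largest difference was that of mwh, at -0.22 ± 0.13 (SE, adjusted p = 0.589).

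In LID RNAi 16 of the 53 genes, or 30.2%, lay below all 4 control arrays, against 12.8% of all probe sets and 15.7% of those above background, and 3 (5.66%) lay above them, against 10.6% and 12.3%. With quantile normalisation 16 (30.2%) lay below as well, against 12.4% of all probe sets and 14.7% of those above background. Above the controls lay 3 (5.66%) under this scaling, against 11.5% and 13.9%. With arrays centred on their medians 3 (5.66%) lay above the controls, against 16.5% and 18.7%. The number below them was then 9 (17.0%), against 8.72% of all probe sets and 11.0% of those above background. Those 9 were Pez, Tgi, 14-3-3zeta, crb, scrib, baz, ed, kst and stan, named after their values were seen. The 9 include crb, the apical determinant that binds Expanded, which read 11.33 and 11.37 with LID RNAi, 11.63 and 11.51 with GFP RNAi and 11.53 and 11.59 in wild type. The difference for crb was -0.22 ± 0.08 (SE) from GFP RNAi and -0.21 ± 0.08 from wild type (limma adjusted p = 0.373 and 0.285). The adhesion molecule gene ed stood at -0.20 ± 0.07 and -0.22 ± 0.07 (adjusted p = 0.354 and 0.214), and kst, the gene for the heavy beta-spectrin of the apical cortex, at -0.19 ± 0.08 and -0.18 ± 0.08 (adjusted p = 0.417 and 0.339). Each of these differences lies inside the 5% to 95% range of all probe sets above background. That range was -0.57 to 0.48 in LID RNAi against GFP RNAi and -0.77 to 0.57 against wild type. In size each exceeds the median absolute difference of these probe sets, which was 0.13 from GFP RNAi and 0.15 from wild type.

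**Figure D4:**
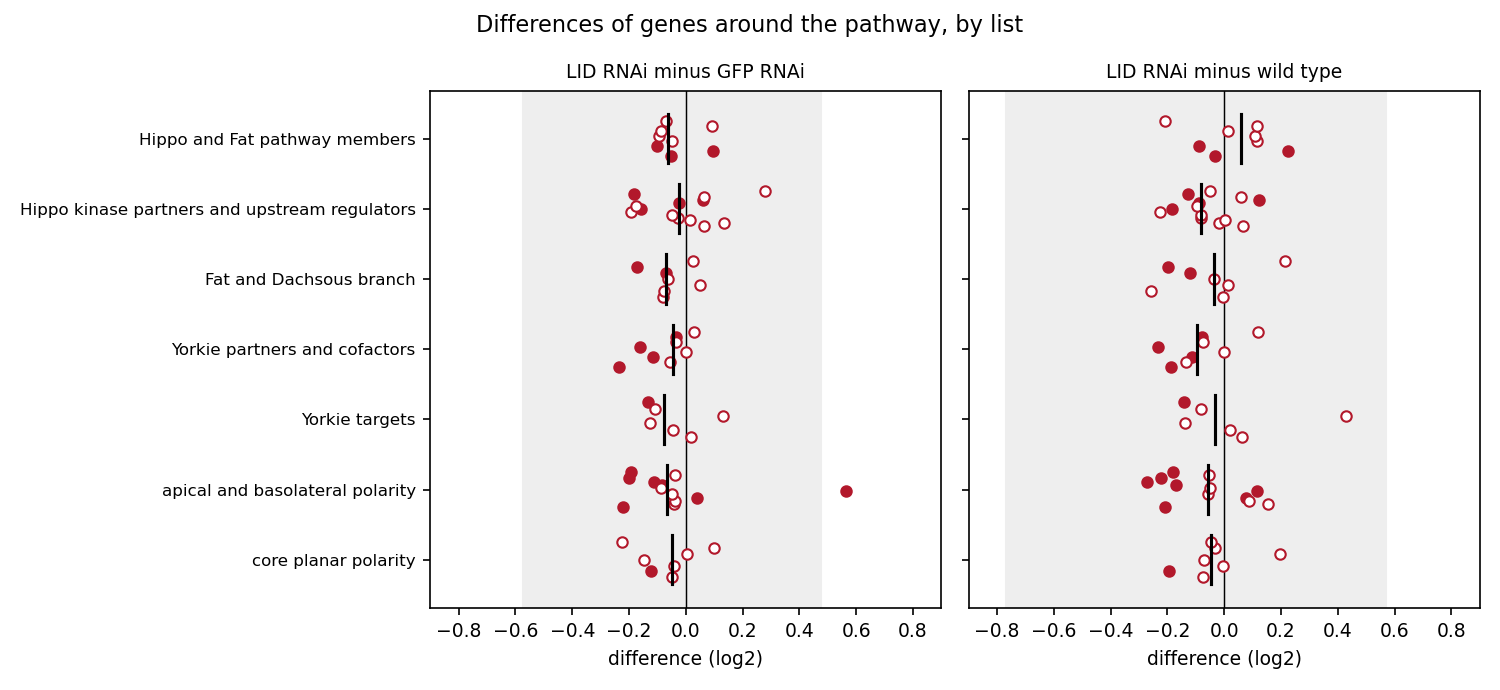
Differences in log2 of the 8 pathway genes and 53 related genes in 7 lists, for LID RNAi minus GFP RNAi (left) and LID RNAi minus wild type (right). Each point is 1 gene (its brightest probe set), filled where both LID RNAi arrays lie above or below all 4 control arrays; black bars are list medians and the grey band holds the 5% to 95% range of probe sets above background, which only l(2)gl leaves, on the left.

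Discs hold several cell types, and fewer cells of a type cannot be told apart from less RNA per cell. The 7 measured markers of the disc epithelium (vg, which is also among the targets of Yorkie, and nub, ap, rn, zfh2, Doc1 and tup) were all above background, and their summed level in log2 was 14.27 and 14.22 on the LID RNAi arrays, 14.34 and 14.39 on the GFP RNAi arrays and 14.34 and 14.42 on the wild type arrays. Both LID RNAi arrays were thus below the 4 control arrays in this sum too. With arrays centred on their medians the LID RNAi arrays were level with wild type replicate 1 at 14.28. Among the single markers only vg and tup lay below all 4 control arrays in LID RNAi. For nub, ap, rn, zfh2 and Doc1 the LID RNAi arrays lay neither below nor above all 4. Against GFP RNAi rn stood at 0.18 and the other markers below 0, with both arrays lower for vg, nub and tup. Against wild type nub stood at 0.017 and the others below 0, with both arrays lower for vg, rn, zfh2, Doc1 and tup. Doc1 was furthest from wild type, at -0.50 (limma adjusted p = 0.0508). In GFP RNAi Doc1 stood at -0.48 from wild type (adjusted p = 0.0907). The 8 markers of haemocytes, the larval blood cells, summed to 14.11 and 13.79 with LID RNAi, 12.90 and 13.21 with GFP RNAi and 13.23 and 12.39 in wild type, with lz within background in GFP RNAi and wild type. For each gene both LID RNAi arrays lay above both GFP RNAi arrays. Against wild type the genes were uneven, at 2.71 for PPO1, 2.63 for PPO2, 2.20 for lz, 0.98 for Hml and 0.54 for He. Pxn stood at 0.33, srp at 9.7e-05 and NimC1 at -0.095 from wild type, with arrays overlapping. Of these 8, 0 passed against GFP RNAi and 1 (lz) passed against wild type, beside 0.469% and 2.34% of all probe sets. Of 4 salivary gland markers 1 passed in each, ng1, which was likewise within background in GFP RNAi and wild type, with LID RNAi replicate 2 highest in their sum (12.72 against 11.37 to 11.98 on the other 5 arrays). Markers of adult muscle precursors (4 measured), trachea (3) and nervous system (4) differed by medians of 0.18, 0.29 and 0.024 between LID RNAi and GFP RNAi, those of fat body (2) and eye disc (4) by -0.051 and -0.063, and 0 of these genes passed. The part of these cell types in the differences above was not tested.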

How the data were processed

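The authors deposited log2 expression values per probe set for 6 arrays, and the submitters' processing notes name RMA for them; options are not given in the sources used here. They were used without further scaling. Of 18952 probe sets, 183 manufacturer controls were left out. Symbols came from the platform annotation, where 13647 tested probe sets carry 1 symbol, 402 several and 4720 none. Group means were estimated for all 18769 probe sets in limma 3.58.1 under R 4.3.3 (3 residual and 1.77 prior degrees of freedom, two-sided, Benjamini-Hochberg adjustment over all probe sets, threshold 0.05). Whether both arrays of a group stem from separate dissections is not stated, so SE and p may cover technical spread only, and the number of arrays limits the precision.

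Titles gave the groups. Members and lists were chosen with earlier results of these data known. In lists a gene stands by its brightest probe set, up to 4 passing genes or else the largest difference from GFP RNAi are named, and the markers serve as a check of tissue. Similar profiles were limited to probe sets above background with at least 0.5 times the SD of hpo. The fit was tested on simulated data. Alternatives changed the scaling, the filter on dim probe sets, the variance prior, a block for replicate number, the groups in the fit, each array and the probe set rule. Counts of arrays without overlap under other scalings, and list medians over genes above background on every array, were added after seeing the data.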

Additional observations from a re-analysis of the deposited data

How the results depend on the processing

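Under all 14 alternatives (the mean of both probe sets for kibra only) 0 of the 9 pathway probe sets passed limma's adjusted threshold in each comparison, with adjusted p of at least 0.233, 0.123 and 0.0854 in LID RNAi against GFP RNAi, against wild type and in GFP RNAi against wild type. At an unadjusted p under 0.05 at most 2 of the 9 were reached in any of them. In the main fit 12.4%, 16.9% and 11.4% of all 18769 probe sets reached it, in the same order of comparisons. Without variance moderation 2168, 2796 and 2066 of all probe sets did, and with an intensity trend 2617, 3456 and 2402. Whether 2 of 9 differs from these shares was not tested. Across all probe sets, the counts of calls moved much more. From 88 in LID RNAi against GFP RNAi the count went to 189 with dim probe sets left out, 247 with an intensity trend, 2 without variance moderation, 3 with only the 2 groups compared, 12 with a replicate block and 0 to 6 with any 1 array left out. The count of 0 came from leaving out either GFP RNAi array or the second LID RNAi array, with 1773, 1644 and 2197 at an unadjusted p under 0.05. From 439 in LID RNAi against wild type it went to 784 with the trend, 1 without moderation, 99 with only the 2 groups, 200 with the replicate block and 24 (without wild type replicate 1) to 324 with 1 array left out. From 162 in GFP RNAi against wild type it went to 325, 2, 90 and 41 in the same order, and 4 (without either GFP RNAi array) to 90 with 1 array left out. Replicate numbers were not shown to pair the arrays, since deviations of arrays with the same number correlated at 0.30, 0.22 and 0.065 between groups, and the replicate block changed no call of a pathway gene, while Kdm5 lost its call against GFP RNAi under it (adjusted p = 0.0820).

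Some signs turned. Of 119 values per comparison for the 9 probe sets, 3 turned in LID RNAi against GFP RNAi, 7 in LID RNAi against wild type and 3 in GFP RNAi against wild type. For kibra on 1632884_at quantile normalisation gave 0.020 in LID RNAi against GFP RNAi and 0.072 against wild type, median centring 0.065 against wild type, and the mean of both probe sets -0.044 in GFP RNAi against wild type. Median centring gave 0.041 for yki, 0.022 for msn and 0.025 for mwh in LID RNAi against wild type, and 0.011 for mnb and 0.029 for vg (0.013 with quantile normalisation) in GFP RNAi against wild type. With 1 array left out, LID RNAi against GFP RNAi ran from -0.20 to 0.0084 for fj and from -0.21 to 0.068 for kibra (1624053_at). LID RNAi against wild type ran from -0.029 to 0.055 for ex, -0.054 to 0.040 for kibra (1632884_at), -0.16 to 0.054 for msn and -0.11 to 0.016 for mwh. GFP RNAi against wild type ran from -0.010 to 0.053 for Mer, -0.00081 to 0.031 for wts, -0.054 to 0.081 for Kdm5, -0.13 to 0.075 for mnb and -0.063 to 0.046 for vg. The cause of these changes was not tested. Where 1 array of a group was left, it was assumed to vary like the other groups.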
